A study of Mus musculus with 12 samples.

Results

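Whether difluoromethylornithine (DFMO) changed chromatin accessibility differently in 2 CD4+ T cell lineages was examined peak by peak, as the log2 DFMO effect in non-pathogenic Th17 cells (Th17n) minus the log2 DFMO effect in induced regulatory T cells (iTreg). All 12 libraries of the series entered this interaction, 3 in each of 4 groups. Of 48443 peaks in the table, 43726 had enough counts to be tested, and 574 of these passed an adjusted p of 0.05 (1.31% of those tested). They are called interaction peaks here. A positive (higher) value means that DFMO moved accessibility up more, or down less, in Th17n than in iTreg, and a negative (lower) value means the opposite.

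The cells were made in culture from naive CD4+CD44-CD62L+CD25- cells sorted from spleens of wild-type C57BL/6 mice, whose sex and age are not given. Every culture was stimulated through plate-bound anti-CD3 and anti-CD28 at 1 µg/ml each, ended at 68 hours, and carried TGF-beta1 at 2 ng/ml. Th17n cultures also had IL-6 at 25 ng/ml, which iTreg cultures lacked. The 4 groups were Th17n with 100 µM DFMO, Th17n with vehicle, iTreg with 100 µM DFMO and iTreg with vehicle. The number in each sample title is read here as the animal, so that each of 3 animals gave 1 culture to every group. Live cells were sorted, frozen and thawed before Tn5 tagmentation, so each library is a bulk measurement of 1 culture.

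DFMO irreversibly inhibits ornithine decarboxylase, the enzyme that makes putrescine, from which the polyamines spermidine and spermine are built. Spermidine is also the substrate for hypusination of the translation factor eIF5A, and polyamine supply bears on how activated T cells adopt a helper or a regulatory fate. ATAC-seq counts Tn5 insertions in open DNA, and an interaction asks whether the same drug moves a region by a different amount in each lineage. In bulk libraries a smaller share of cells with an open region and less opening per cell cannot be told apart.

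Promoter windows of 4 genes whose start lay inside an interaction peak are printed because their peaks carry the results below: a fatty acid desaturase (Fads2), the signature Th17 cytokine (Il17a), and a core and a linker histone (H2bc9 and H1f5). Sequences are from RefSeq on GRCm38.p6 and run 5′ to 3′ on the gene's strand from 250 bases before to 50 bases after the start. Capitals mark a GGGCGG box in Fads2, TGANTCA and TATAAA in Il17a, CCAAT in H2bc9, and CCAAT and TATAAA in H1f5, searched on both strands, so that ATTGG is CCAAT on the other strand. No 2 of these motifs overlap in the windows.
Fads2 promoter window, chr19:10101454-10101753, minus strand: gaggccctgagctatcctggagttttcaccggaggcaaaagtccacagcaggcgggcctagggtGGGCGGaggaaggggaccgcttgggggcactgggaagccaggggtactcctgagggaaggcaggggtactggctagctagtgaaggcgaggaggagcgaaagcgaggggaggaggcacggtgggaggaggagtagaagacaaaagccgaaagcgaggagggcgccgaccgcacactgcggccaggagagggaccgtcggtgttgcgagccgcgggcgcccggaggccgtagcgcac
Il17a promoter window, chr1:20730655-20730954, plus strand: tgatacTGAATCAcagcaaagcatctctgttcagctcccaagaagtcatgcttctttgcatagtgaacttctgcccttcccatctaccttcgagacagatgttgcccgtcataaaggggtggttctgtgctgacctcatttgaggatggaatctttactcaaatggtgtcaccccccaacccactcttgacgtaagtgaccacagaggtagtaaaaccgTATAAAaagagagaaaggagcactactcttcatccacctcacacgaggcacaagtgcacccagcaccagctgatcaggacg
H2bc9 promoter window, chr13:23543395-23543694, minus strand: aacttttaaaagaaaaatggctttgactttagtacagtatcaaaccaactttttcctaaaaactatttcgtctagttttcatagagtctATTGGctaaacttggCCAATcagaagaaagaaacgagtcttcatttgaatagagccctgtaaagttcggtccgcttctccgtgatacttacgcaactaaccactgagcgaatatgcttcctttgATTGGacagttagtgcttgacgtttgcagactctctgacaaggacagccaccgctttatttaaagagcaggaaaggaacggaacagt
H1f5 promoter window, chr13:21780576-21780875, minus strand: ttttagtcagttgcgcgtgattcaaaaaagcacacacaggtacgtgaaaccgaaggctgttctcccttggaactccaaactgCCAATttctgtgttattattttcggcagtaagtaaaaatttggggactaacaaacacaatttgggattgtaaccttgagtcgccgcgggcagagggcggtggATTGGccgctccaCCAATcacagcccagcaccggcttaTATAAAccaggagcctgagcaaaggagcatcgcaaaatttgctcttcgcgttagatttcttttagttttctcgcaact
Among all 21263 protein-coding windows of this length, 46.2% held GGGCGG, 38.2% CCAAT, 12.6% TATAAA and 6.99% TGANTCA. A match is a description of the letters and not a binding site.

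Total counts ran from 1020937 to 6496550 per library, a ratio of 6.36, and values are given as CPM (counts in every 1000000 of the library, after TMM scaling), for animals 1, 2 and 3 in that order. Gene ends took 47.2% to 48.9% of counts in Th17n DFMO, 45.5% to 46.4% in Th17n vehicle, 55.3% to 57.0% in iTreg DFMO and 53.8% to 56.2% in iTreg vehicle. The labels were set against marker genes within 10 kb. All 6 Th17 markers and all 6 Treg markers had a peak. Over vehicle libraries, 18 of 26 Th17 marker peaks were higher in Th17n and 4 in iTreg, while 5 of 30 Treg marker peaks were higher in Th17n and 9 in iTreg. Summed accessibility over Th17 markers was 403 to 475 CPM in Th17n DFMO, 516 to 537 in Th17n vehicle, 170.3 to 255 in iTreg DFMO and 255 to 329 in iTreg vehicle. Over Treg markers the sums were 793 to 876 CPM in Th17n DFMO, 1001 to 1084 in Th17n vehicle, 964 to 1122 in iTreg DFMO and 1115 to 1210 in iTreg vehicle. The Foxp3 peak went against the iTreg label, at 15.7 CPM in Th17n vehicle and 4.39 in iTreg vehicle (log2 1.65, adjusted p = 0.000491 in edgeR). Over the libraries, cytotoxic and NK markers summed to 10.2 to 20.6 CPM (2 of 5 with a peak), the 1 B cell marker of 4 with a peak to 16.9 to 47.6 CPM, and myeloid markers, all 5 with a peak, to 45.7 to 72.7 CPM. Cd8a, Gzma, Ncr1, Ms4a1 and Cd79a had no peak. The part of other cell types in the results was not tested.

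The DFMO effect differed between the lineages in both directions. Of the 574 interaction peaks, 365 were higher (0.835% of tested peaks) and 209 lower (0.478%), and they had a median absolute log2 value of 1.88 (range 0.609 to 6.24). In 269 of them DFMO's fold effect differed at least 4-fold between the lineages. The nearest genes, within 100 kb, numbered 483. For comparison, DFMO changed 3841 peaks in Th17n (8.78% of those tested, 4.5% up and 4.28% down) and 3742 in iTreg (8.56%, 3.84% up and 4.72% down). The animal-by-animal interaction had the same sign in all 3 animals at 569 of the 574 peaks, and in 2 of 3 at the other 5. The peaks were chosen on these same libraries, so this is a description of them, and over all tested peaks the sign was shared at 15403 of 43726.

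Most interaction peaks moved in 1 lineage and did not pass the test in the other. Among the higher ones, DFMO opened 176 in Th17n alone, closed 141 in iTreg alone and did both at 26. Another 5 opened in both lineages, 1 closed in both, and 16 passed in neither lineage taken singly. Among the lower ones, DFMO closed 89 in Th17n alone, opened 94 in iTreg alone and did both at 14, with 1 opened in both and 11 passing in neither. The 40 peaks that moved in opposite directions made up 0.0915% of tested peaks. By the unadjusted p within each lineage, 205 interaction peaks moved in opposite directions, so the classes depend on the threshold within a lineage.

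**Figure D1:**
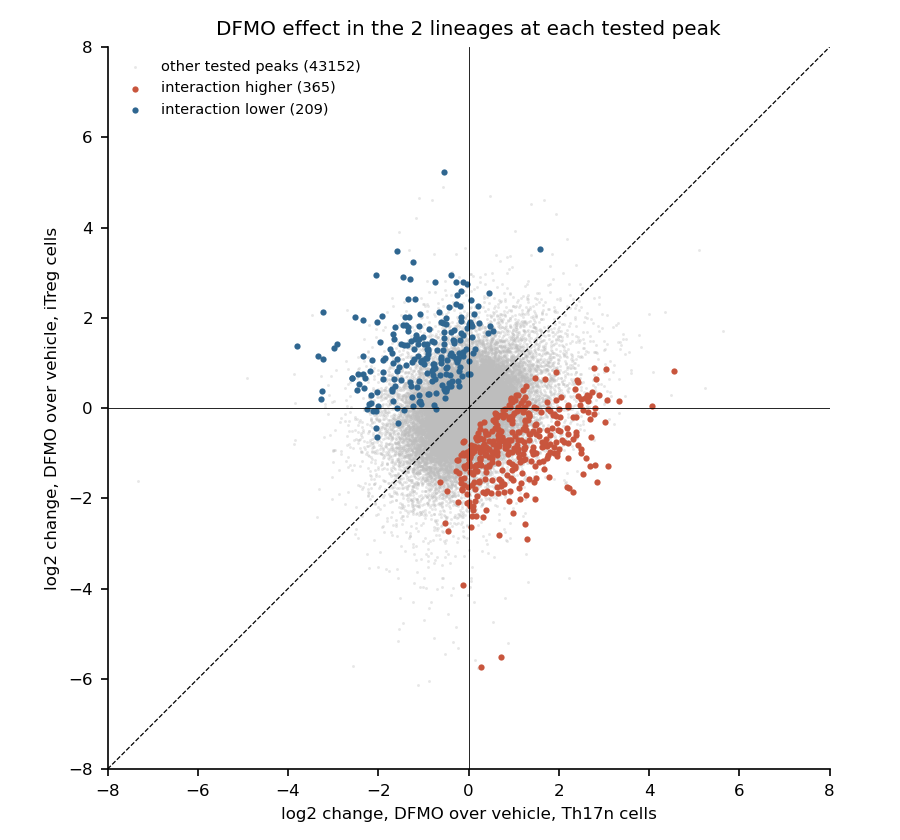
Each point is 1 tested peak, with the log2 change by DFMO in Th17n cells on the x axis and in iTreg cells on the y axis. Orange points are the 365 higher and blue points the 209 lower interaction peaks, grey points are other tested peaks, and the dashed line marks equal effects. Higher peaks lie to the lower right of the line and lower peaks to its upper left.

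The levels of these classes showed which of the 4 groups stood apart. At the 176 peaks opened in Th17n alone, median accessibility was 20.8 CPM in Th17n DFMO, 6.83 in Th17n vehicle, 16.4 in iTreg DFMO and 19.4 in iTreg vehicle, so Th17n vehicle was the low group. At the 141 closed in iTreg alone, the medians were 34.4, 31.2, 10.7 and 27.4 CPM in the same order, with iTreg DFMO as the low group. At the 89 closed in Th17n alone they were 6.90, 25.2, 5.79 and 3.15 CPM, with Th17n vehicle as the high group. At the 94 opened in iTreg alone they were 17.2, 24.2, 18.2 and 6.25 CPM, with iTreg vehicle as the low group.

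The gap between lineages was therefore different with and without the drug. At the 209 lower peaks the median log2 gap, Th17n minus iTreg, was 0.09 with DFMO and 2.29 with vehicle. At the 365 higher peaks it was 0.79 with DFMO and -0.76 with vehicle. Over all tested peaks the same medians were -0.0045 with DFMO and -0.07 with vehicle. These gaps are built from the same libraries as the interaction and are a description of it, not a second result.

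The number of interaction peaks depended on single libraries. It was 192 without Th17n vehicle animal 3, 232, 371 and 340 without Th17n DFMO animals 1, 2 and 3, 344 and 314 without Th17n vehicle animals 1 and 2, 329 and 260 without iTreg DFMO animals 1 and 3, 324 and 334 without iTreg vehicle animals 2 and 3, 791 without iTreg vehicle animal 1, and 1370 without iTreg DFMO animal 2. The share of higher calls was 63.6% with TMM factors, 53.2% with median-ratio (RLE) size factors, 54.8% with TMM factors from gene-end peaks, 51.8% in DESeq2 and 55.0% with no filter. It was 50.6% to 69.1% without 1 library in 11 of the 12 fits, and without iTreg DFMO animal 1 the split turned, at 156 higher and 173 lower. The excess of higher over lower peaks thus depended on scaling, filter and single libraries.

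Some of the interaction peaks with the smallest p moved in opposite directions, with DFMO opening the region in Th17n and closing it in iTreg. A peak inside Psma6, a subunit of the proteasome core (chr12:55392950-55393563), had 45.2, 59.2 and 43.5 CPM in Th17n DFMO, 17, 20.0 and 17.5 in Th17n vehicle, 15.1, 23.2 and 19.4 in iTreg DFMO and 33.2, 30.7 and 41.6 in iTreg vehicle. Th17n DFMO did not overlap Th17n vehicle, and iTreg DFMO did not overlap iTreg vehicle. The DFMO effect was 1.42 ± 0.220 in Th17n (adjusted p = 2.35e-05) and -0.86 ± 0.224 in iTreg (adjusted p = 0.01), an interaction of 2.28 ± 0.314 SE (adjusted p = 3e-05). Shld2 encodes a subunit of shieldin, which protects broken DNA ends from resection, and its peak (chr14:34240793-34241450) had 11.7, 17.9 and 8.43 CPM in Th17n DFMO, 0, 2.28 and 1.72 in Th17n vehicle, 3.61, 9.39 and 7.70 in iTreg DFMO and 14, 15.6 and 20.6 in iTreg vehicle. All Th17n DFMO libraries lay above all Th17n vehicle libraries, which were near the detection limit, and all iTreg DFMO libraries lay below all iTreg vehicle libraries. The interaction was 4.06 ± 0.584 SE (adjusted p = 5.05e-05).

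Rab38, a small GTPase of lysosome-related organelle traffic, and Aim2, a sensor of DNA in the cytosol, had the same pattern at different levels. The Rab38 peak (chr7:88459873-88460176) had 22.1, 24.7 and 17.5 CPM in Th17n DFMO, 2.83, 5.64 and 3.15 in Th17n vehicle, 1.20, 1.48 and 1.23 in iTreg DFMO and 7.77, 3.78 and 3.95 in iTreg vehicle. Th17n DFMO stood above the other 3 groups, and iTreg DFMO below them. Its interaction was 4.17 ± 0.662 SE (adjusted p = 0.000304). The Aim2 peak (chr1:173418920-173419767) had 22.4, 26 and 20.1 CPM in Th17n DFMO, 10.4, 10.2 and 9.16 in Th17n vehicle, 21.7, 35.6 and 30.5 in iTreg DFMO and 42.5, 52.9 and 52.8 in iTreg vehicle. Here iTreg vehicle was the highest group and Th17n vehicle the lowest, and neither lineage's DFMO libraries overlapped its own vehicle libraries. The interaction was 1.97 ± 0.331 SE (adjusted p = 0.000655). A peak in Ccser1 (chr6:61225438-61225941) was also higher, at 2.75 ± 0.455 SE (adjusted p = 0.000506), with DFMO effects of log2 0.91 in Th17n and -1.84 in iTreg.

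At other regions only the iTreg change passed the test. The peak over the Fads2 start (chr19:10100699-10102206), whose promoter window is printed above, had 57.9, 56.2 and 57.7 CPM in Th17n DFMO, 72.7, 68.4 and 52.9 in Th17n vehicle, 28.9, 39 and 18.5 in iTreg DFMO and 107, 86.2 and 104 in iTreg vehicle. The iTreg DFMO libraries were the lowest and the iTreg vehicle libraries the highest, and the Th17n groups overlapped between them. The DFMO effect was -0.15 ± 0.172 in Th17n (adjusted p = 0.645) and -1.82 ± 0.181 in iTreg (adjusted p = 6.87e-09), an interaction of 1.67 ± 0.251 SE (adjusted p = 0.000123). A region 2943 bp from Spcs2, a signal peptidase subunit (chr7:99833657-99834626), had 65.4, 50.7 and 59.7 CPM in Th17n DFMO, 37.7, 56.8 and 58.9 in Th17n vehicle, 14.5, 21.7 and 20.6 in iTreg DFMO and 48.7, 63.8 and 84.6 in iTreg vehicle. The 3 iTreg DFMO libraries lay below all others, and the interaction was 1.93 ± 0.276 SE (adjusted p = 5.05e-05). A region with no gene within 100 kb (chr8:34671416-34673126) followed it, with an interaction of 1.42 ± 0.229 SE (adjusted p = 0.000383) and DFMO effects of log2 0.16 in Th17n and -1.27 in iTreg.

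The interaction with the smallest p of all was a Th17n gain in a region with no gene within 100 kb (chr15:5758523-5759218). It had 53.7, 32.8 and 49.3 CPM in Th17n DFMO, 2.83, 7.62 and 7.73 in Th17n vehicle, 19.3, 45.5 and 26.5 in iTreg DFMO and 34.2, 37.5 and 36.8 in iTreg vehicle. Th17n vehicle was far below the other 3 groups, which overlapped one another. The DFMO effect was 2.69 ± 0.280 in Th17n (adjusted p = 7.67e-09) and -0.25 ± 0.238 in iTreg (adjusted p = 0.576), an interaction of 2.95 ± 0.368 SE (adjusted p = 8.2e-06). A similar gene-distant peak on chromosome 18 had an interaction of 2.37 ± 0.314 SE (adjusted p = 2.1e-05), with Th17n vehicle at 9.44, 7.77 and 4.29 CPM and every other library at 41.5 CPM or more.

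Lower interaction peaks included regions that DFMO closed in Th17n and opened in iTreg. A peak 26777 bp from Hspb8, a small heat shock protein (chr5:116380623-116381714), had 12.7, 11.5 and 6.49 CPM in Th17n DFMO, 25.5, 27.1 and 33.5 in Th17n vehicle, 16.9, 10.4 and 19.1 in iTreg DFMO and 5.18, 3.55 and 4.57 in iTreg vehicle. Th17n vehicle was the highest group and iTreg vehicle the lowest, while the DFMO groups of both lineages overlapped between them. The DFMO effect was -1.45 ± 0.301 in Th17n (adjusted p = 0.0013) and 1.85 ± 0.341 in iTreg (adjusted p = 0.000318), an interaction of -3.30 ± 0.455 SE (adjusted p = 3e-05). A peak 703 bp from an end of Atm, the DNA damage kinase (chr9:53435559-53436419), had 13, 20.0 and 18.8 CPM in Th17n DFMO, 33, 41.6 and 52.7 in Th17n vehicle, 9.03, 15.8 and 8.62 in iTreg DFMO and 3.63, 2.67 and 3.32 in iTreg vehicle. Here too the DFMO groups of both lineages lay between the vehicle groups, and the interaction was -3.15 ± 0.454 SE (adjusted p = 5.05e-05). Uvrag, an autophagy and endosome traffic factor, had an inside peak with 31.9, 31.1 and 43.5 CPM in Th17n DFMO, 56.6, 71.1 and 67 in Th17n vehicle, 31.3, 23.2 and 21.2 in iTreg DFMO and 5.18, 12.2 and 14.3 in iTreg vehicle. Its interaction was -2.03 ± 0.329 SE (adjusted p = 0.000392), and the call ended when libraries were thinned to the lowest total (adjusted p = 0.118).

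In other lower regions DFMO opened the peak in iTreg and the Th17n change did not pass. Peli2, a Pellino ubiquitin ligase of Toll-like and IL-1 receptor signalling, had an inside peak (chr14:48202314-48203017) with 47.8, 53.3 and 51.3 CPM in Th17n DFMO, 55.7, 57.4 and 53.2 in Th17n vehicle, 38.5, 34.1 and 55.7 in iTreg DFMO and 11.9, 11.6 and 17.9 in iTreg vehicle. Only the iTreg vehicle libraries stood apart, below all others, and the interaction was -1.76 ± 0.284 SE (adjusted p = 0.000388). A Bend4 peak (chr5:67419134-67420166) had 26.4, 25.1 and 29.2 CPM in Th17n DFMO, 39.6, 27.6 and 27.2 in Th17n vehicle, 33.1, 62.8 and 64.4 in iTreg DFMO and 10.9, 14.7 and 13.5 in iTreg vehicle, with iTreg vehicle again the lowest group. Its interaction was -2.19 ± 0.331 SE (adjusted p = 0.000123). Cep70, a centrosomal protein, had an inside peak near 55.8 CPM in Th17n DFMO, 62.4 in Th17n vehicle, 11.7 in iTreg DFMO and 2.17 in iTreg vehicle (means of 3), an interaction of -2.93 ± 0.449 SE (adjusted p = 0.000155). A peak near Srgap3 had an interaction of -2.36 ± 0.387 SE (adjusted p = 0.000451), and one on an unplaced scaffold of the assembly (positions 26317-27253) had -1.11 ± 0.200 SE (adjusted p = 0.00162), both with an iTreg gain.

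The reverse class, a loss in Th17n with no passing change in iTreg, held Ripor2 and Il4ra. Ripor2 encodes an inhibitor of RhoA, and its peak (chr13:24546845-24547705) had 19.5, 15.3 and 20.8 CPM in Th17n DFMO, 58.5, 56.7 and 63 in Th17n vehicle, 18.1, 12.4 and 17.9 in iTreg DFMO and 13.5, 12.9 and 10.6 in iTreg vehicle. Th17n vehicle stood above the other 3 groups, whose ranges were close to one another. The interaction was -2.10 ± 0.344 SE (adjusted p = 0.000451). Il4ra is the receptor chain shared by IL-4 and IL-13. The peak at its gene end (chr7:125577589-125578850) had 60.5, 40.9 and 42.2 CPM in Th17n DFMO, 112, 103 and 132 in Th17n vehicle, 28.9, 27.2 and 21.9 in iTreg DFMO and 22.8, 19.8 and 22.9 in iTreg vehicle. Both Th17n groups lay above both iTreg groups, and Th17n DFMO lay below Th17n vehicle without overlap. The interaction was -1.49 ± 0.260 SE (adjusted p = 0.00112). The 20 peaks that ranked first, 10 in each direction, all kept their call in each of the 12 fits that left out 1 library. They were chosen on these same libraries, for a small p and 1 sign in all 3 animals. Their kept calls are thus a description and not a separate test.

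**Figure D2:**
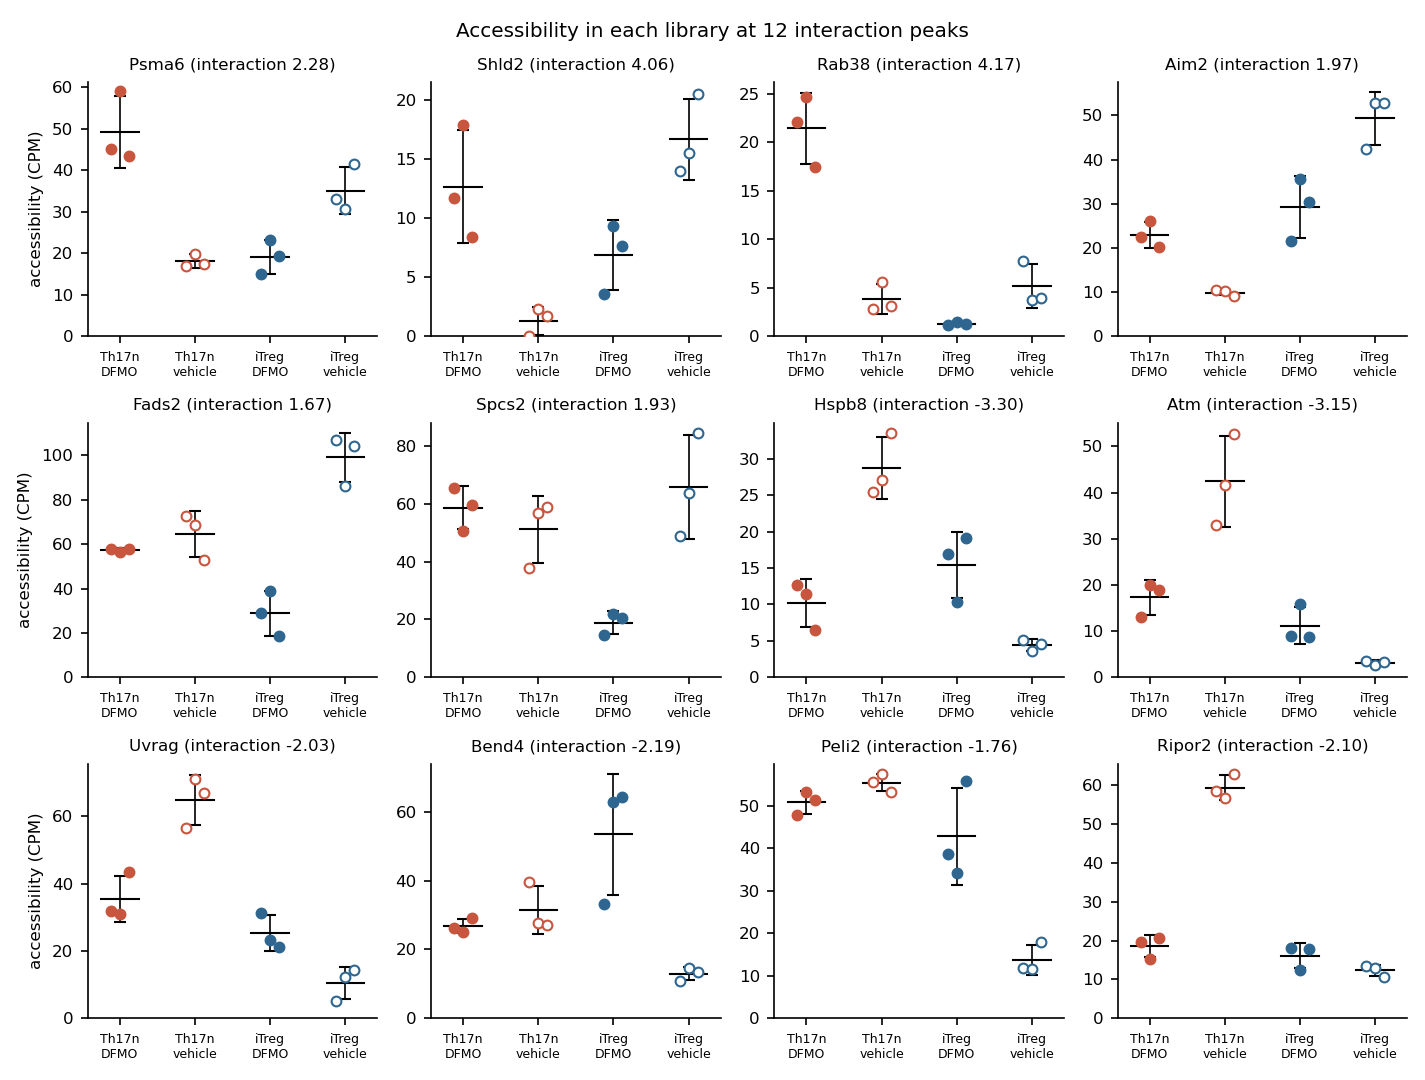
Accessibility in CPM (y axis, from 0) in each library at 12 interaction peaks, by group, with filled points for DFMO, open points for vehicle, and bars for the mean ± SD of 3 libraries. At the Psma6, Shld2, Rab38 and Aim2 peaks the DFMO effect has opposite signs in Th17n and iTreg, and at the Hspb8, Atm and Uvrag peaks the signs are the other way round.

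Histone genes formed the clearest family among higher peaks, a family picked out after the values were seen. Replication-dependent histones lie in clusters and supply chromatin proteins when DNA is copied. Peaks over the starts of clustered histone genes numbered 33 among those tested. The set of promoter windows that gave the starts was incomplete, so other histone starts may be missed. Of the 33 peaks, 11 were higher and 0 lower (33.3%), and 32 had a positive value. Over all tested peaks 0.835% were higher, and over those at 80 CPM or more 1.63%. The median level of the histone peaks was 89.9 CPM. Their median interaction was 0.64, against 0.04 over all tested peaks. The median DFMO effect over the 33 was 0.66 in Th17n and 0.0067 in iTreg; 26 rose in Th17n and 0 changed in iTreg.

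All 11 lay on chromosome 13. The share of all tested histone peaks on that chromosome is not given here, so this only states where the members lay. The peak over H2ac4 and H3c2 (chr13:23750999-23752816) had 131, 139 and 134 CPM in Th17n DFMO, 56.6, 86.1 and 67.2 in Th17n vehicle, 81.9, 161 and 110.2 in iTreg DFMO and 147, 136 and 123 in iTreg vehicle. Th17n vehicle had the lowest mean, with animal 2 above iTreg DFMO animal 1, and the Th17n DFMO libraries lay within the range of the iTreg libraries. The DFMO effect was 0.89 ± 0.152 in Th17n (adjusted p = 9.58e-05) and -0.19 ± 0.146 in iTreg (adjusted p = 0.479), an interaction of 1.08 ± 0.210 SE (adjusted p = 0.00362). H1f3, a linker histone that binds DNA between nucleosomes, had 236, 228 and 255 CPM in Th17n DFMO, 105, 136 and 124 in Th17n vehicle, 179, 254 and 206 in iTreg DFMO and 219, 183 and 164 in iTreg vehicle. Th17n vehicle was below every other library, and the interaction was 0.76 ± 0.166 SE (adjusted p = 0.0107). H1f5, whose window is printed above, had an interaction of 0.90 ± 0.202 SE (adjusted p = 0.0139), and H2bc9 had 0.97 ± 0.224 SE (adjusted p = 0.0164).

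A run of 3 neighbouring tested peaks, over H2ac12 with H2bc12, H4c9, and H2ac11 with H2bc11, was higher within 8861 bp of chromosome 13. The H4c9 peak had 86.2, 89.5 and 74 CPM in Th17n DFMO, 34, 52.7 and 42.6 in Th17n vehicle, 81.3, 115 and 91.5 in iTreg DFMO and 91.7, 98.2 and 84 in iTreg vehicle, with Th17n vehicle below all others. Its interaction was 0.81 ± 0.209 SE (adjusted p = 0.0333), and those of its neighbours were 0.86 ± 0.220 SE (adjusted p = 0.0327) and 0.74 ± 0.189 SE (adjusted p = 0.0317). These calls held in 2, 4 and 4 of 12 fits without 1 library for H2ac12, H4c9 and H2ac11. The H2ac12 call ended without Th17n DFMO animals 1, 2 or 3, Th17n vehicle animals 1, 2 or 3, iTreg DFMO animals 1 or 3 or iTreg vehicle animals 1 or 2 (adjusted p of up to 0.18 without iTreg DFMO animal 1), the H4c9 call without Th17n DFMO animals 1, 2 or 3, Th17n vehicle animals 1 or 3, iTreg DFMO animals 1 or 3 or iTreg vehicle animal 2 (adjusted p of up to 0.166 without Th17n vehicle animal 3) and the H2ac11 call without Th17n DFMO animals 1, 2 or 3, Th17n vehicle animals 1 or 3, iTreg DFMO animals 1 or 3 or iTreg vehicle animal 2 (adjusted p of up to 0.198 without Th17n vehicle animal 3). All 3 also ended in other settings, H2ac12 in DESeq2 (0.314), the fit with RLE factors (0.0502) and that with gene-end factors (0.0607), H4c9 in DESeq2 (0.0638), the fit with RLE factors (0.0527), that with gene-end factors (0.0551) and that with no filter (0.0586) and H2ac11 in DESeq2 (0.0739), the fit with RLE factors (0.0524), that with gene-end factors (0.0569) and that with no filter (0.0572), given with their adjusted p. The other members were H2ac10 at 1.07, H2ac7 with H2bc7 at 0.81, H4c4 at 0.92 and H2bc3 at 0.70 log2. Because histone genes are near-identical copies, reads may be split among them.

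Of the 15 promoter windows in the 11 histone peaks, 14 held CCAAT (93.3%) and 11 TATAAA (73.3%). In the 27 windows of histone peaks that did not pass, the shares were 81.5% and 59.3%, so both motifs were common in both sets of windows.

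Summed over the 33 histone peaks, accessibility was 3516, 3387 and 3508 CPM in Th17n DFMO, 1922, 2438 and 2194 in Th17n vehicle, 2977, 4337 and 3324 in iTreg DFMO, and 3832, 3588 and 3109 in iTreg vehicle. Animal 2 was the highest of the iTreg DFMO libraries. Without it 21 of 33 were higher, and without iTreg DFMO animals 1 or 3 the count was 2 or 1. It was 2, 3 and 2 without Th17n DFMO animals 1, 2 and 3, 1, 8 and 1 without Th17n vehicle animals 1, 2 and 3, and 8, 5 and 12 without iTreg vehicle animals 1, 2 and 3. The median interaction stayed between 0.48 and 0.84 in these fits. It was 0.58 with RLE size factors and 0.59 with TMM factors from gene-end peaks, where 6 passed in each. In DESeq2 5 passed, with thinned libraries 4 and with voom 16.

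Peaks over small RNA genes, likewise grouped after the values were seen, gave 15 of the 365 higher and 0 of the 209 lower interaction peaks. They made up 4.11% of higher interaction peaks and 0.698% of tested peaks. Many of these genes are read by RNA polymerase III, as transfer RNAs are. Over tRNA genes, 6 of 145 peaks were higher and 0 lower, and 127 had a positive value, with a median interaction of 0.42. The median level of these peaks was 40.8 CPM, and 0.994% of all tested peaks at 40 to 80 CPM were higher. The DFMO effect over the 145 had a median of 0.73 in Th17n, where 89 rose and 0 fell, and 0.38 in iTreg, where 30 rose and 0 fell.

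A cluster on chromosome 11 held 3 of the 6 tRNA peaks. The peak over n-TIaat5, n-TSaga4 and n-TTagt8 near Ctc1 (chr11:69037032-69037954) had 68, 73.7 and 75.3 CPM in Th17n DFMO, 20.8, 22.4 and 23.2 in Th17n vehicle, 51.2, 87 and 56.3 in iTreg DFMO and 42.5, 46.2 and 36.8 in iTreg vehicle. DFMO raised it without overlap in both lineages, and more in Th17n: the effect was 1.69 ± 0.187 in Th17n (adjusted p = 2.41e-08) and 0.63 ± 0.174 in iTreg (adjusted p = 0.0153), and the interaction was 1.05 ± 0.255 SE (adjusted p = 0.0216). A neighbour over n-TDgtc9, n-TGtcc6, n-TPcgg3 and n-TWcca7 (chr11:69039884-69041848) had 186, 193 and 199.8 CPM in Th17n DFMO, 90.6, 101 and 101 in Th17n vehicle, 162, 231 and 164 in iTreg DFMO and 168, 156 and 169 in iTreg vehicle. There Th17n vehicle was the low group and the interaction was 0.79 ± 0.166 SE (adjusted p = 0.00669). The largest of the 6 was at n-TFgaa6 near Osbp, at 1.14 ± 0.299 SE (adjusted p = 0.0386). The remaining 3 peaks, near Borcs6, Mrpl58 and BC107364, had interactions of 0.85, 0.76 and 0.96.

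Genes annotated as small nuclear RNA, a class that acts mainly in splicing, had 6 higher and 0 lower of 35 peaks. The median level of these peaks was 81.8 CPM, and 1.63% of all tested peaks at 80 CPM or more were higher. Of the 35, 34 had a positive interaction, with a median of 0.51. The Rnu2-10 peak near Arl4d (chr11:101657926-101659242) had 206, 167 and 147 CPM in Th17n DFMO, 88.7, 78.1 and 63.8 in Th17n vehicle, 137, 220.0 and 155 in iTreg DFMO and 146, 135 and 112 in iTreg vehicle. Th17n vehicle lay below every other library, and the interaction was 0.82 ± 0.199 SE (adjusted p = 0.022). The others were at Gm23143 (1.21), Gm25099 (0.80), Gm23444 (0.79), Rnu3b4 (0.80) and LOC115487699 (0.72). Over genes annotated as small nucleolar RNA, 1 of 33 was higher, at Snord118 (1.03 ± 0.246 SE (adjusted p = 0.019)). That family's median interaction was -0.02, which was 0.02 with voom and 0.07 with thinned libraries. Without 1 library the count of higher snoRNA peaks was 0 or 1, and 0 in 7 of the 12 fits.

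**Figure D3:**
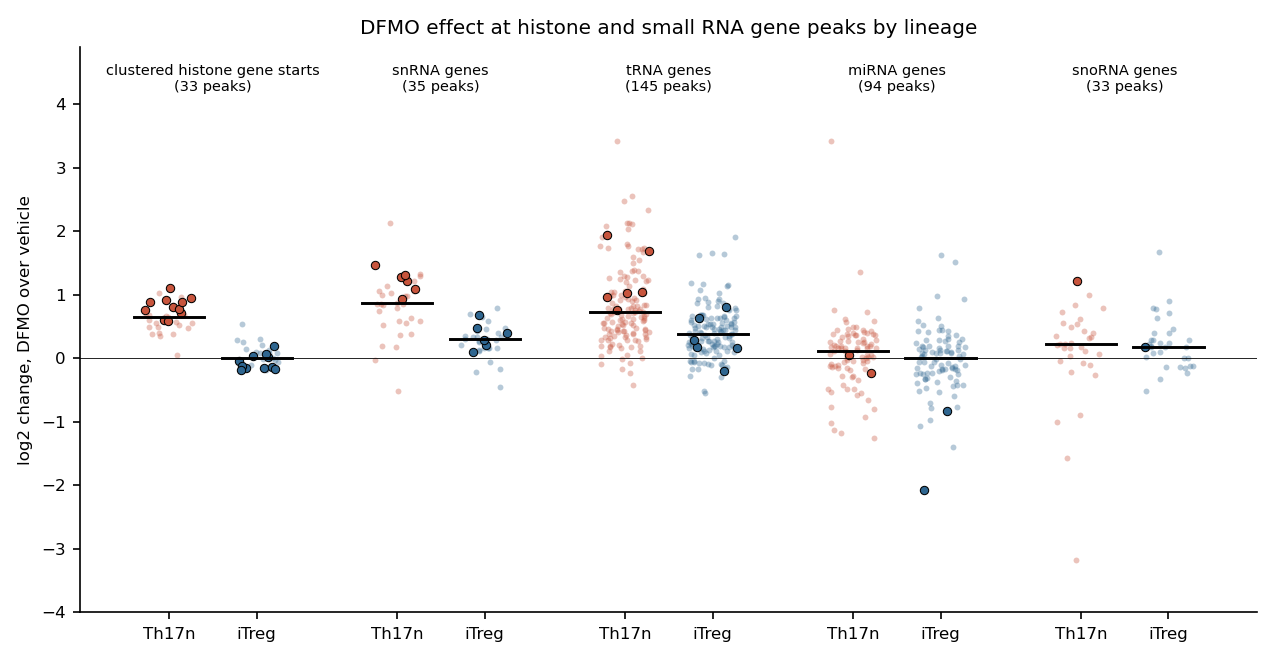
Log2 change by DFMO (y axis) at each tested peak over clustered histone starts, snRNA, tRNA, miRNA and snoRNA genes, in Th17n (orange) and in iTreg (blue). Outlined points are interaction peaks and bars are medians. Histone peaks centre on 0.66 in Th17n and 0.0067 in iTreg, and tRNA peaks on 0.73 and 0.38.

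The counts of tRNA and snRNA members depended on single libraries. Without iTreg DFMO animal 2, 14 tRNA and 15 snRNA peaks were higher. Without iTreg DFMO animals 1 or 3 the tRNA count was 1 or 0, and it was 1, 2 and 3 without Th17n DFMO animals 1, 2 and 3, 2, 3 and 2 without Th17n vehicle animals 1, 2 and 3, and 6, 3 and 4 without iTreg vehicle animals 1, 2 and 3. The snRNA count was 0 without iTreg DFMO animals 1 or 3, 0, 0 and 3 without Th17n DFMO animals 1, 2 and 3, 1, 3 and 0 without Th17n vehicle animals 1, 2 and 3, and 3, 1 and 5 without iTreg vehicle animals 1, 2 and 3. Median interactions remained positive in all 12 fits, at 0.31 to 0.46 for tRNA and 0.36 to 0.69 for snRNA genes. The tRNA count was 4 with RLE or gene-end factors, 5 in DESeq2, 2 with thinned libraries, 10 with the animal as a block and 21 with voom. The snRNA count was 4 with RLE factors, 3 with gene-end factors, 1 in DESeq2, 1 with thinned libraries and 15 with voom.

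Over microRNA gene peaks, the median interaction was 0.13 and the median level 40.9 CPM. Over all tested peaks 0.835% were higher, and over those at 40 to 80 CPM 0.994%. MicroRNA genes had 2 higher and 0 lower of 94 peaks (2.13% higher), too few to set the family apart. At both, the loss in iTreg passed and the Th17n change did not, while over the 94 DFMO raised 7 and lowered 3 in Th17n, and raised 6 and lowered 7 in iTreg. The higher count was 0 without Th17n DFMO animals 1 or 2, Th17n vehicle animals 1, 2 or 3, iTreg DFMO animal 3 or iTreg vehicle animal 3, 1 without iTreg DFMO animal 1 or iTreg vehicle animal 2, and 4 without iTreg DFMO animal 2. It was 1 with RLE or gene-end factors, 0 with thinned libraries and 5 with voom. One covered Mir132 and Mir212, whose mature 3′ arms share a seed. Bases 2 to 8 are in capitals in the RefSeq sequences, and the other covered Mir361.
mmu-miR-132-3p: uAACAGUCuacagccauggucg
mmu-miR-212-3p: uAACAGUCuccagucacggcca
mmu-miR-361-5p: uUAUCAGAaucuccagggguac
The Mir132 and Mir212 peak (chr11:75172573-75173812) had 55.6, 59.2 and 46.1 CPM in Th17n DFMO, 56.6, 48.9 and 52.7 in Th17n vehicle, 33.1, 43 and 37.3 in iTreg DFMO and 61.6, 65.1 and 74.2 in iTreg vehicle. The iTreg DFMO libraries lay below all others, and the interaction was 0.89 ± 0.232 SE (adjusted p = 0.0367). The Mir361 peak, inside Chm (chrX:113074730-113075648), had 27, 35.4 and 24.7 CPM in Th17n DFMO, 28.3, 38.8 and 33.5 in Th17n vehicle, 4.82, 1.98 and 1.85 in iTreg DFMO and 11.9, 9.55 and 12.5 in iTreg vehicle. The iTreg DFMO libraries were again the lowest, and both Th17n groups lay above both iTreg groups. The interaction was 1.84 ± 0.470 SE (adjusted p = 0.0317).

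By place, interaction peaks were set away from gene ends. A gene end, meaning within 1 kb of either end of a gene model, held 14.0% of higher and 6.22% of lower peaks, against 26.8% of tested peaks. Peaks inside a gene model made up 43.3% of higher and 57.9% of lower peaks, against 41.8% of tested peaks. Peaks outside, within 100 kb, made up 31.8% and 28.2%, against 26.8%. Peaks with no gene within 100 kb made up 11% and 7.66%, against 4.51%. A transcription start from the set of promoter windows lay in 38 interaction peaks (6.62%), against 19.6% of tested peaks. That set was incomplete, so both shares are undercounts. It held no start on chromosome 18, and the start nearest to the peak inside Tox was 2428968 bp away.

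The split was also present within a class of level. Among peaks averaging 20 to 40 CPM, 0.544% at gene ends passed, against 2.61% inside a gene, 2.62% outside and 5.93% with no gene within 100 kb. Interaction peaks were a median of 641 bp wide for higher and 557 bp for lower ones, against 519 bp for tested peaks.

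**Figure D4:**
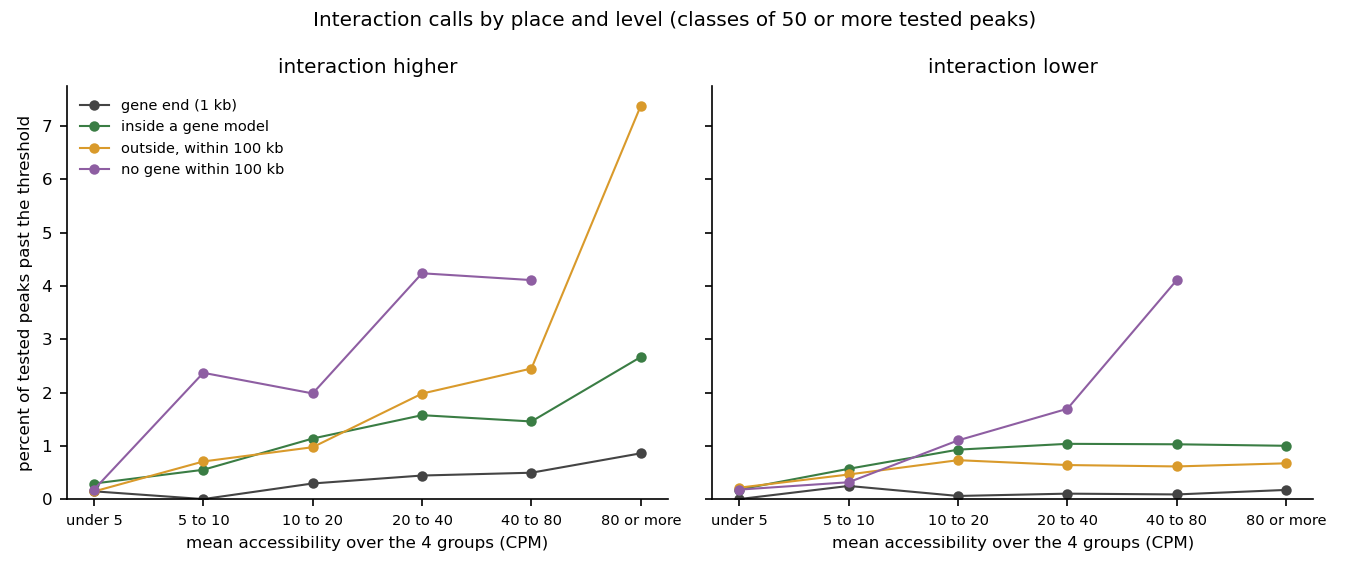
Percent of tested peaks past the interaction threshold (y axis) by mean accessibility in CPM (x axis) and by place, for higher (left) and lower (right) interaction peaks; classes under 50 tested peaks are not drawn. In peaks of 10 CPM or more, gene ends have the lowest percentage in both directions.

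Over the protein-coding starts in the incomplete set of promoter windows, interaction peaks were few, at 30 higher and 8 lower of 8582 (0.350% higher). Outside the histone clusters, 19 were higher and 8 lower. The direction of the split was not stable: it was 17 higher and 16 lower in DESeq2, 20 and 15 with RLE factors and 20 and 10 with gene-end factors, 4 and 6 without Th17n DFMO animal 1, 6 and 7 without iTreg DFMO animal 1, 4 and 4 without iTreg DFMO animal 3, and 76 and 21 without iTreg DFMO animal 2. In the other 8 fits without 1 library more were higher than lower. Named after their values were seen, the higher ones included Gadd45b, a stress-induced signalling gene (0.61), and Nr1d1, a nuclear receptor of the circadian clock (1.02). The lower ones included Gbe1, the glycogen branching enzyme (-0.74), and Il17a.

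Genes of the Th17 programme had 5 higher and 2 lower interaction peaks of 179 tested within 100 kb (3.91%, against 1.31% of all tested peaks). The list's median interaction was 0.14, against 0.04 over all tested peaks. The peak over the start of Il17a, the defining cytokine of the lineage (chr1:20730661-20731781), had 11.1, 8.95 and 6.49 CPM in Th17n DFMO, 24.5, 24.4 and 18 in Th17n vehicle, 5.42, 2.97 and 1.54 in iTreg DFMO and 0, 0.889 and 1.66 in iTreg vehicle. DFMO lowered it in Th17n without overlap, and Th17n DFMO stayed above all iTreg libraries, where counts were near the detection limit. The DFMO effect was -1.28 ± 0.365 in Th17n (adjusted p = 0.0193) and 1.49 ± 0.609 in iTreg (adjusted p = 0.119), an interaction of -2.78 ± 0.712 SE (adjusted p = 0.0328). The Il17a call held in 5 of 12 fits and ended without Th17n DFMO animals 2 or 3, Th17n vehicle animals 1, 2 or 3, iTreg DFMO animal 1 or iTreg vehicle animal 2, with an adjusted p of up to 0.16 without iTreg DFMO animal 1.

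Of the other members, 5 were higher and 1, at Irf4, was lower. An inside peak of Il6ra, which binds the IL-6 that drives the lineage (chr3:89880039-89880692), had 57.6, 49.8 and 52.5 CPM in Th17n DFMO, 41.5, 35.6 and 41.5 in Th17n vehicle, 31.3, 39.5 and 25.6 in iTreg DFMO and 62.7, 57.1 and 60.1 in iTreg vehicle. The iTreg DFMO libraries lay below the iTreg vehicle libraries, and the interaction was 1.37 ± 0.251 SE (adjusted p = 0.00192). Ikzf3, an Ikaros family factor, had 46.9, 34.1 and 45.4 CPM in Th17n DFMO, 22.6, 21 and 24.3 in Th17n vehicle, 5.42, 21.3 and 13.5 in iTreg DFMO and 31.6, 21.1 and 29.5 in iTreg vehicle. DFMO opened this peak in Th17n without overlap, and the iTreg ranges overlapped slightly. The interaction was 1.88 ± 0.374 SE (adjusted p = 0.00445). Stat3, the transducer of IL-6 signals, had 15, 20.9 and 27.2 CPM in Th17n DFMO, 6.61, 6.55 and 5.15 in Th17n vehicle, 42.2, 42.5 and 43.4 in iTreg DFMO and 46.1, 32.4 and 40.1 in iTreg vehicle at an inside peak. Th17n vehicle lay below all other libraries, and the interaction was 1.61 ± 0.358 SE (adjusted p = 0.0118). The Stat3 call ended without Th17n DFMO animal 3 or Th17n vehicle animal 3, at an adjusted p of up to 0.0759 without Th17n vehicle animal 3. The other members were higher near Ahr (1.22) and Il10 (1.15) and lower at Irf4 (-1.23).

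The regulatory T cell programme had 3 higher and 1 lower of 198 peaks (2.02%), with a median of 0.08. Nrp1, a surface receptor of regulatory T cells, had 2 higher peaks. The inside one (chr8:128420476-128421247) had 40.3, 31.1 and 31.8 CPM in Th17n DFMO, 63.2, 44.3 and 43.8 in Th17n vehicle, 10.2, 11.9 and 8.31 in iTreg DFMO and 23.8, 47.1 and 32.4 in iTreg vehicle, and the iTreg DFMO libraries were the lowest. Its interaction was 1.34 ± 0.344 SE (adjusted p = 0.0318), and that of the second, 9219 bp from the gene, was 2.01. Prdm1, which encodes the repressor Blimp-1, had an inside peak with 14.3, 7.67 and 13 CPM in Th17n DFMO, 2.83, 3.96 and 5.15 in Th17n vehicle, 0, 5.93 and 1.54 in iTreg DFMO and 5.70, 4.89 and 7.48 in iTreg vehicle, an interaction of 2.74 ± 0.719 SE (adjusted p = 0.0384). Satb1, a chromatin organiser that is low in regulatory T cells, had a lower peak 70592 bp away with 8.13, 9.37 and 2.59 CPM in Th17n DFMO, 38.7, 23.5 and 28.6 in Th17n vehicle, 6.63, 2.97 and 3.70 in iTreg DFMO and 3.63, 2.89 and 3.53 in iTreg vehicle. Th17n vehicle stood above the other groups there, and the interaction was -2.40 ± 0.587 SE (adjusted p = 0.0234). Of 12 fits without 1 library, the call held in 4 for Nrp1, 3 for Prdm1 and 6 for Satb1. It ended for Nrp1 without Th17n DFMO animals 1, 2 or 3, Th17n vehicle animals 2 or 3, iTreg DFMO animals 1 or 3 or iTreg vehicle animal 2, at an adjusted p of up to 0.168 without iTreg vehicle animal 2. It ended for Prdm1 without Th17n DFMO animals 1 or 3, Th17n vehicle animals 1, 2 or 3, iTreg DFMO animals 1 or 3 or iTreg vehicle animals 2 or 3, at an adjusted p of up to 0.155 without iTreg DFMO animal 3, and for Satb1 without Th17n DFMO animal 3, Th17n vehicle animals 1 or 3, iTreg DFMO animals 1 or 3 or iTreg vehicle animal 2, at an adjusted p of up to 0.104 without iTreg DFMO animal 1. The Nrp1 call also ended in DESeq2 (0.0543) and the Prdm1 call in the fit with gene-end factors (0.0523), given with their adjusted p, and in DESeq2 1 peak of the list was higher and 1 lower.

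Other helper programmes held few members. The Th1 list had 1 higher of 81 peaks (1.23%, median 0.09), inside Stat4, the transducer of IL-12 signals, at 1.76 ± 0.412 SE (adjusted p = 0.0177). The Stat4 call held in 6 fits and ended without Th17n DFMO animal 1, Th17n vehicle animal 3, iTreg DFMO animals 1 or 3 or iTreg vehicle animals 2 or 3, at an adjusted p of up to 0.0934 without Th17n vehicle animal 3. Il4ra was the 1 member among 45 peaks of the Th2 list (2.22%, median 0.11). The Tfh list had 2 higher of 69 (2.90%, median 0.05). These were near Btla, an inhibitory receptor, at 2.48 ± 0.567 SE (adjusted p = 0.0153), and inside Tox, a factor of helper cell and exhausted T cell programmes, at 1.88 ± 0.432 SE (adjusted p = 0.0155). The Btla call ended without Th17n DFMO animal 2, Th17n vehicle animal 3 or iTreg vehicle animal 3, at an adjusted p of up to 0.0801 without Th17n DFMO animal 2, and the Tox call without Th17n DFMO animals 1 or 3, Th17n vehicle animals 2 or 3 or iTreg DFMO animal 3, at an adjusted p of up to 0.0819 without iTreg DFMO animal 3.

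Among 282 peaks of genes tied to naive and memory T cells, 4 were higher and 4 lower (2.84%, median 0.04). Bach2, a repressor that restrains effector differentiation, had a peak in each direction. The lower one (chr4:32564447-32564816) had 9.44, 8.52 and 13 CPM in Th17n DFMO, 6.61, 12.6 and 20.6 in Th17n vehicle, 10.8, 17.3 and 20.3 in iTreg DFMO and 4.66, 4 and 3.95 in iTreg vehicle. DFMO opened it in iTreg without overlap, while the Th17n groups overlapped. Its interaction was -2.48 ± 0.508 SE (adjusted p = 0.00578), ended without Th17n vehicle animal 3 (adjusted p = 0.0581 without Th17n vehicle animal 3), and that of the higher one was 0.64. Zeb1, a zinc finger repressor, had a lower peak with opposite DFMO effects of log2 -0.99 in Th17n and 0.98 in iTreg, an interaction of -1.97 ± 0.429 SE (adjusted p = 0.00939). A peak 82840 bp from Id2, an inhibitor of E proteins, was lower at -2.91 ± 0.686 SE (adjusted p = 0.0183), and the call ended without iTreg DFMO animals 1 or 3 or iTreg vehicle animals 2 or 3 (adjusted p of up to 0.149 without iTreg DFMO animal 1). The other members were Satb1, 2 higher peaks in Ets1 (1.74 and 1.08) and 1 near the homing receptor gene Ccr7 (1.42).

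TGF-beta and STAT feedback genes had 1 higher and 2 lower of 166 peaks (1.81%, median -0.03, which was positive at 0.06 within 10 kb). A region 27175 bp from Tgfbi, a matrix protein gene induced by TGF-beta (chr13:56582199-56582411), had 0.976, 1.28 and 0 CPM in Th17n DFMO, 8.49, 8.68 and 9.44 in Th17n vehicle, 4.82, 5.44 and 4.62 in iTreg DFMO and 4.14, 1.78 and 1.45 in iTreg vehicle. Th17n DFMO was close to 0 and lay below all other libraries, and Th17n vehicle lay above them. The interaction was -4.50 ± 0.845 SE (adjusted p = 0.00221). Smad3, which carries the TGF-beta signal to the nucleus, was higher at 0.82 ± 0.198 SE (adjusted p = 0.0217), and Jak1, a kinase of cytokine receptors, was lower at -0.91 ± 0.250 SE (adjusted p = 0.0493). The Smad3 call held in 4 of 12 fits, ending without Th17n DFMO animals 1 or 3, Th17n vehicle animals 1, 2 or 3, iTreg DFMO animals 1 or 3 or iTreg vehicle animal 3 (adjusted p of up to 0.183 without Th17n DFMO animal 1). The Jak1 call held in 3, ending without Th17n DFMO animals 1, 2 or 3, Th17n vehicle animals 2 or 3, iTreg DFMO animals 1 or 3 or iTreg vehicle animals 2 or 3 (adjusted p of up to 0.142 without iTreg vehicle animal 2).

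Metabolic lists held 8 interaction peaks in glycolysis and hypoxia and in sterol and fatty acid synthesis. The sterol and fatty acid list had 3 higher and 1 lower of 62 peaks (6.45%), with a median of 0.26. Within 10 kb 2 of 51 were higher and 0 lower (3.92%). Besides Fads2, the members within 100 kb were 2 nearest to Scd2, a stearoyl-CoA desaturase, and a lower one 72832 bp from Sqle. Sqle encodes squalene epoxidase of cholesterol synthesis. The second Scd2 peak lay more than 10 kb from the gene. The Scd2 gene-end peak (chr19:44293459-44294453) had 72.9, 57.9 and 61.6 CPM in Th17n DFMO, 30.2, 63.5 and 57.5 in Th17n vehicle, 46.4, 60.3 and 50.2 in iTreg DFMO and 100.5, 92 and 102 in iTreg vehicle. DFMO lowered it in iTreg without overlap, while the Th17n groups overlapped. Its interaction was 1.16 ± 0.233 SE (adjusted p = 0.0048), which did not pass without Th17n DFMO animal 1 (adjusted p = 0.0613 without Th17n DFMO animal 1), and that of the second was 0.89. The Sqle value was -4.36 ± 1.13 SE (adjusted p = 0.0351), with both iTreg groups at or under 2.47 CPM. It ended without Th17n DFMO animals 1 or 3, Th17n vehicle animals 2 or 3, iTreg DFMO animals 1 or 2 or iTreg vehicle animals 2 or 3 (adjusted p of up to 0.131 without iTreg vehicle animal 3).

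The glycolysis and hypoxia list had 3 higher and 1 lower of 103 peaks (3.88%, median 0.09), and within 10 kb 2 of 77 were higher and 0 lower. The peak over the start of Slc16a3, a lactate exporter (chr11:120948552-120949360), had 22.4, 21.7 and 24.7 CPM in Th17n DFMO, 26.4, 21.8 and 26 in Th17n vehicle, 18.7, 9.89 and 12 in iTreg DFMO and 34.7, 39.8 and 41.1 in iTreg vehicle. DFMO lowered it in iTreg without overlap and the Th17n groups overlapped, an interaction of 1.46 ± 0.346 SE (adjusted p = 0.0183). A region 48217 bp from Ndrg1, a gene induced by hypoxia and stress (chr15:67017858-67018345), had 2.93, 1.70 and 1.30 CPM in Th17n DFMO, 20.8, 23.3 and 18 in Th17n vehicle, 1.20, 1.98 and 1.85 in iTreg DFMO and 1.04, 1.78 and 1.45 in iTreg vehicle. Th17n vehicle was the only group above 3 CPM. The interaction was -3.47 ± 0.786 SE (adjusted p = 0.0142). Vegfa, an angiogenic factor gene, and Pfkp, a phosphofructokinase, were higher at 2.49 ± 0.636 SE (adjusted p = 0.0315) and 0.99 ± 0.256 SE (adjusted p = 0.0351). The Slc16a3 call ended without Th17n DFMO animals 1 or 3, Th17n vehicle animals 2 or 3, iTreg DFMO animal 3 or iTreg vehicle animals 2 or 3 (adjusted p of up to 0.0897 without Th17n vehicle animal 2), and that of Ndrg1 without Th17n vehicle animal 2 or iTreg DFMO animal 3 (adjusted p of up to 0.0787 without iTreg DFMO animal 3). The Vegfa call ended without Th17n DFMO animals 1, 2 or 3, Th17n vehicle animals 1 or 3, iTreg DFMO animals 1 or 3 or iTreg vehicle animal 1 (adjusted p of up to 0.167 without Th17n vehicle animal 3), and that of Pfkp without Th17n DFMO animals 1 or 2, Th17n vehicle animals 1, 2 or 3, iTreg DFMO animals 1 or 3 or iTreg vehicle animal 2 (adjusted p of up to 0.191 without Th17n DFMO animal 1) and in the fit with RLE factors (0.0506), that with gene-end factors (0.0513) and that with no filter (0.0518).

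Of the ATF4 amino acid stress list, 1 of 58 peaks was higher and 1 lower (3.45%, median 0.08). The lower was Ndrg1, and the higher was inside Slc7a5, an amino acid transporter, at 0.98 ± 0.229 SE (adjusted p = 0.0172). The Slc7a5 call ended without Th17n DFMO animal 1, Th17n vehicle animals 1 or 3, iTreg DFMO animals 1 or 3 or iTreg vehicle animals 2 or 3 (adjusted p of up to 0.15 without iTreg DFMO animal 3). Chromatin and DNA modifiers had 1 higher and 1 lower of 172 (1.16%, median 0.19), against 4 higher and 1 lower with the animal as a block. These were near Kdm2b, a histone demethylase, at 1.03 ± 0.261 SE (adjusted p = 0.0306), and near Ep300, a histone acetyltransferase, at -2.36 ± 0.639 SE (adjusted p = 0.0466). The Kdm2b call held in 3 fits and the Ep300 call in 2. They ended without Th17n DFMO animals 1, 2 or 3, Th17n vehicle animals 1 or 3, iTreg DFMO animals 1 or 3 or iTreg vehicle animals 2 or 3 for Kdm2b (adjusted p of up to 0.146 without Th17n vehicle animal 3) and without Th17n DFMO animals 1, 2 or 3, Th17n vehicle animals 1, 2 or 3, iTreg DFMO animals 1 or 3 or iTreg vehicle animals 2 or 3 for Ep300 (adjusted p of up to 0.13 without iTreg vehicle animal 2).

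The counts in these lists moved with single libraries and settings. Without 1 library, the Th17 list had 2 to 14 higher and 0 to 3 lower, the regulatory T cell list 0 to 9 higher and 0 to 2 lower, the naive and memory list 0 to 5 higher and 2 to 7 lower, the sterol and fatty acid list 1 to 7 higher and 0 to 2 lower and the glycolysis and hypoxia list 0 to 5 higher and 0 to 2 lower. Each of these had its highest count of higher peaks without iTreg DFMO animal 2. The naive and memory list, even in its main split, had 2 higher and 6 lower in DESeq2, 2 and 4 with RLE factors and 1 and 4 with gene-end factors. Thinning the libraries ended the calls of Ikzf3, Stat3, Il17a, Satb1, Nrp1, Btla, Tox, Id2, Smad3, Kdm2b, Ndrg1, Slc16a3, Vegfa and Pfkp (adjusted p 0.0631 to 0.328).

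**Figure D5:**
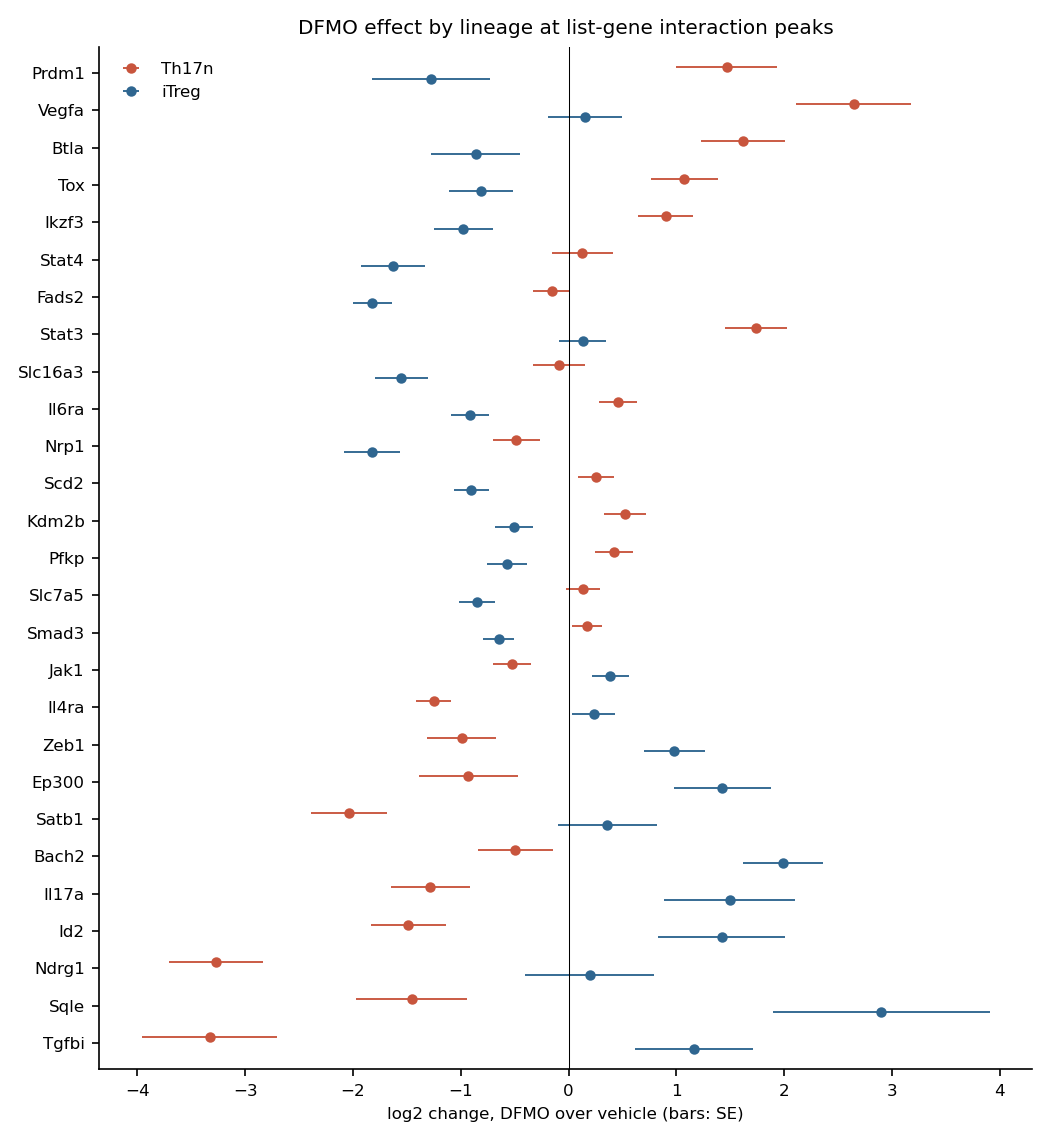
Log2 change by DFMO ± SE (x axis) in Th17n (orange, upper) and iTreg (blue, lower) at the named interaction peak of each list gene, ordered by the interaction from the highest value at the top. Prdm1 has the highest interaction at 2.74 and Tgfbi the lowest at -4.50.

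The enzymes and transporters of polyamine metabolism, the pathway the drug targets, held no interaction peak. Of 66 peaks of 20 genes, 0 passed in edgeR and 0 in DESeq2. Over all tested peaks 1.31% passed in edgeR, so 0 of 66 is close to that share and does not set the pathway apart. An unadjusted edgeR p below 0.05 was reached at 14 of the 66, a larger share than the 13.9% of all tested peaks. The median interaction over the 66 was 0.09. Without iTreg DFMO animal 2, 2 of these peaks were lower, and with voom 1 was. The smallest p was inside Smox, spermine oxidase, with 11.4, 17.5 and 17.5 CPM in Th17n DFMO, 48.1, 41.7 and 42.4 in Th17n vehicle, 11.4, 1.98 and 11.7 in iTreg DFMO and 5.18, 10.2 and 9.56 in iTreg vehicle. The Smox interaction of -1.49 ± 0.470 SE (adjusted p = 0.0947) did not pass, while DFMO lowered the peak in Th17n (log2 -1.52, adjusted p = 0.000676). The gene-end peak of Odc1, ornithine decarboxylase itself, had an interaction of -0.16 ± 0.181 SE (adjusted p = 0.755), and that of Eif5a had 0.16 ± 0.152 SE (adjusted p = 0.703).

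Activation and AP-1 genes had 0 of 201 in edgeR without the block and 0 in DESeq2, with 30 at an unadjusted p below 0.05 and a median of 0.15. With the animal as a block 1 was higher, at Nfkb2 (adjusted p = 0.0368), with voom 3 were, and without iTreg DFMO animal 2 or iTreg vehicle animal 1 the count was 6 or 1. Cell cycle genes had 0 of 105 by either tool (6 unadjusted, median 0.0077), and interferon genes 0 of 40 (1 unadjusted, median 0.14). Markers of other cell types had 0 by either tool: 0 of 16 cytotoxic T and NK peaks (6 unadjusted), 0 of 23 B cell peaks (6 unadjusted) and 0 of 11 myeloid peaks (1 unadjusted). Over all tested peaks 1.31% passed in edgeR, so counts of 0 in lists of these sizes do not set them apart. Among these lists of other cell types, the unadjusted shares of the cytotoxic and B cell lists were above the 13.9% of all tested peaks. Without iTreg DFMO animal 2 a cell cycle peak passed, and without iTreg vehicle animal 1 a B cell peak.

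Several fixed genes of the lineages, of Th1 cells and of chromatin modification did not pass. For each, 1 peak was read, the one nearest a gene end. Foxp3, the regulatory T cell master factor, averaged 5.38 ± 2.44 CPM in Th17n DFMO, 15.7 ± 4.47 in Th17n vehicle, 5.33 ± 1.14 in iTreg DFMO and 4.39 ± 2.29 in iTreg vehicle (SD, n = 3 each), with an interaction of -1.54 ± 0.601 SE (adjusted p = 0.205). Tnfrsf18, which encodes the receptor GITR, was lower with DFMO in both lineages, at log2 -1.92 in Th17n and -1.23 in iTreg, and its interaction of -0.68 ± 0.255 SE (adjusted p = 0.175) did not pass. Ctla4, an inhibitory receptor, had 0.97 ± 0.366 SE (adjusted p = 0.181). Il17f had -0.73 ± 0.965 SE (adjusted p = 0.796), Il23r -0.10, Il2ra -0.65, Ikzf2 -0.42, Tbx21 0.61, Ifng 0.06, Tet2 -0.08, Ezh2 0.46 and Kdm6b -0.04 log2, none of which passed. The sign changed without 1 library at Il17f, Il23r, Tet2, Kdm6b and Ifng, at Ifng also in DESeq2 and with thinned libraries. The wide errors at low peaks such as Il23r (1.58 SE) leave large differences undetectable at this depth.

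Some genes had more than 1 interaction peak. The tested peaks of each gene are not counted here, so these numbers are not shares. Over all tested peaks, 1.31% were interaction peaks. Cradd, an adaptor of caspase-2 death signalling, had 4, all higher. The one with the smallest p (chr10:95144593-95144986) had 14.6, 9.37 and 9.73 CPM in Th17n DFMO, 1.89, 3.50 and 2.86 in Th17n vehicle, 9.03, 10.9 and 11.7 in iTreg DFMO and 22.8, 16.9 and 19.3 in iTreg vehicle, with Th17n vehicle below all others. The 4 interactions were 2.76 ± 0.492 SE (adjusted p = 0.00141), 2.74 ± 0.641 SE (adjusted p = 0.0172), 3.74 ± 0.893 SE (adjusted p = 0.0194) and 2.53 ± 0.688 SE (adjusted p = 0.047). The last did not pass in DESeq2 (0.0657), the fit with RLE factors (0.0551), that with gene-end factors (0.0613), that with no filter (0.0534) and that with the animal as a block (0.0522), given with their adjusted p, and held in 2 of the 12 fits that left out 1 library, ending without Th17n DFMO animals 1, 2 or 3, Th17n vehicle animals 1, 2 or 3, iTreg DFMO animals 1 or 3 or iTreg vehicle animals 2 or 3 (adjusted p of up to 0.186 without Th17n vehicle animal 2). The second ended without Th17n DFMO animal 1, Th17n vehicle animals 2 or 3 or iTreg vehicle animal 3 (adjusted p of up to 0.209 without Th17n DFMO animal 1) and the third without Th17n DFMO animals 1 or 3, Th17n vehicle animal 3 or iTreg DFMO animal 3 (adjusted p of up to 0.111 without Th17n vehicle animal 3). Thinning the libraries also ended the second (adjusted p = 0.326) and the third (0.107).

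Itpr1, the receptor through which inositol trisphosphate releases calcium, had peaks in both directions. One inside peak (chr6:108524174-108524964) had 6.51, 4.26 and 5.19 CPM in Th17n DFMO, 43.4, 30.3 and 26.9 in Th17n vehicle, 3.61, 0.989 and 8.31 in iTreg DFMO and 1.04, 2.89 and 4.16 in iTreg vehicle. Th17n vehicle was far above the other groups, and the interaction was -3.24 ± 0.624 SE (adjusted p = 0.00306). Another, chr6:108340643-108341524, had 27.3, 20.5 and 28.5 CPM in Th17n DFMO, 25.5, 23.5 and 27.2 in Th17n vehicle, 1.81, 4.45 and 5.54 in iTreg DFMO and 9.32, 16.4 and 25.6 in iTreg vehicle. Here the iTreg DFMO libraries were the lowest, and the interaction was 2.08 ± 0.462 SE (adjusted p = 0.0122). Thinning the libraries ended the calls of these 2 peaks (adjusted p = 0.128 and 0.199, in that order). The interaction of the third peak was 3.02 ± 0.829 SE (adjusted p = 0.0493). These calls ended without iTreg DFMO animal 3 (adjusted p = 0.224 without iTreg DFMO animal 3) for the first, without Th17n DFMO animal 1 or iTreg vehicle animal 3 (adjusted p of up to 0.0794 without iTreg vehicle animal 3) for the second and without Th17n DFMO animals 1, 2 or 3, Th17n vehicle animals 1, 2 or 3, iTreg DFMO animals 1 or 3 or iTreg vehicle animals 2 or 3 (adjusted p of up to 0.216 without iTreg vehicle animal 3) for the third, which also ended in DESeq2 (0.317), the fit with RLE factors (0.0556), that with gene-end factors (0.0665) and that with no filter (0.0501).

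Etv6, a repressor of the ETS family, also had peaks in both directions. Its 2 higher peaks had interactions of 2.26 ± 0.504 SE (adjusted p = 0.0125) and 1.60 ± 0.369 SE (adjusted p = 0.0158), both with an iTreg loss, and its lower peak -2.05 ± 0.539 SE (adjusted p = 0.0386) with a Th17n loss. The calls ended without Th17n DFMO animal 1, Th17n vehicle animal 3, iTreg DFMO animal 3 or iTreg vehicle animal 2 (adjusted p of up to 0.151 without iTreg DFMO animal 3), without Th17n DFMO animals 1 or 2, Th17n vehicle animals 2 or 3, iTreg DFMO animal 3 or iTreg vehicle animal 3 (adjusted p of up to 0.152 without iTreg DFMO animal 3) and without Th17n DFMO animals 1, 2 or 3, Th17n vehicle animals 1 or 3, iTreg DFMO animal 2 or iTreg vehicle animals 2 or 3 (adjusted p of up to 0.163 without iTreg DFMO animal 2), in that order, and the lower peak also ended in the fit with voom (0.0628). Ppp1r16b, a regulatory subunit of protein phosphatase, had 3 lower peaks, at -2.59 ± 0.601 SE (adjusted p = 0.0168), -0.92 ± 0.224 SE (adjusted p = 0.022) and -1.84 ± 0.505 SE (adjusted p = 0.0496). They ended without Th17n DFMO animal 1 or iTreg vehicle animal 2 (adjusted p of up to 0.0784 without Th17n DFMO animal 1), without Th17n DFMO animal 1, iTreg DFMO animal 3 or iTreg vehicle animal 1 (adjusted p of up to 0.11 without iTreg DFMO animal 3) and without Th17n DFMO animals 1, 2 or 3, Th17n vehicle animals 1, 2 or 3, iTreg DFMO animal 3 or iTreg vehicle animals 2 or 3 (adjusted p of up to 0.206 without iTreg DFMO animal 3). The last also ended in the fit with no filter (0.0503), that with the animal as a block (0.0548) and that with voom (0.0506), given with their adjusted p. Thinning the libraries ended the first Ppp1r16b call (adjusted p = 0.109). It also ended the calls of the first higher Etv6 peak (0.195) and of the lower one (0.138).

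Bend4 and Srgap3 each had a second lower peak, at -2.29 ± 0.541 SE (adjusted p = 0.0183) and -1.74 ± 0.432 SE (adjusted p = 0.0251). The Bend4 peaks were neighbours among tested peaks, and the second ended without Th17n DFMO animal 1, Th17n vehicle animal 2 or iTreg vehicle animal 2 (adjusted p of up to 0.0733 without iTreg vehicle animal 2). The second Srgap3 peak ended without Th17n DFMO animals 1 or 3, Th17n vehicle animal 3, iTreg DFMO animal 3 or iTreg vehicle animal 2 (adjusted p of up to 0.191 without iTreg DFMO animal 3) and in DESeq2 (0.2). Thinning the libraries also ended the second Bend4 call (adjusted p = 0.157) and the second Srgap3 call (0.0643). In a gene-poor stretch of chromosome 12, 3 neighbouring peaks within 3458 bp were higher, at 1.63 ± 0.437 SE (adjusted p = 0.0434), 1.55 ± 0.385 SE (adjusted p = 0.0252) and 2.12 ± 0.549 SE (adjusted p = 0.0355). They held in 4, 5 and 3 fits. They ended without Th17n DFMO animals 1 or 3, Th17n vehicle animals 1, 2 or 3, iTreg DFMO animals 1 or 3 or iTreg vehicle animal 3 for the first, Th17n DFMO animals 1 or 2, Th17n vehicle animals 2 or 3, iTreg DFMO animals 1 or 3 or iTreg vehicle animal 3 for the second and Th17n DFMO animals 1, 2 or 3, Th17n vehicle animals 1, 2 or 3, iTreg DFMO animals 1 or 3 or iTreg vehicle animal 3 for the third, with adjusted p up to 0.205 without Th17n DFMO animal 3, 0.151 without iTreg DFMO animal 3 and 0.155 without iTreg vehicle animal 3. The first also ended in DESeq2 (0.0549), the fit with RLE factors (0.0528), that with gene-end factors (0.0613) and that with no filter (0.0511). In all, 14 runs of 2 or more neighbouring tested peaks passed in 1 direction.

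Near the threshold, the last 5 peaks inside it were near Riok3 (-3.42), Arhgap26 (-1.51), Tram1 (-2.54), Itpr1 (3.02) and Ppp1r16b (-1.84), with adjusted p of 0.0493 to 0.0496. The first 5 outside it were near Amotl1 (-1.47), Zfp362 (1.72), Rassf3 (-2.27), a gene-distant peak on chromosome 12 (2.76) and Akap11 (1.35), with adjusted p of 0.0505 to 0.0506.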

How the data were processed

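ATAC-seq was read as the deposited table of raw counts, whole and unscaled. Trimmomatic, FastQC, Bowtie2 and MACS2, without versions or settings, and the build mm10 are named per the submitters' processing notes. Whether starts count from 0 or 1 is not given in the sources used here, and 0 value columns were unused.

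Each peak took the closest GRCm38.p6 protein-coding gene model within 100 kb, and closeness is no evidence of regulation. In R 4.3.3, edgeR 4.0.16 fitted all 12 libraries (filterByExpr at a minimum count of 10, TMM, trended dispersion, quasi-likelihood F test, 4 group means, no block), and p-values were Benjamini-Hochberg adjusted over 43726 peaks at 0.05. SE is the log2 estimate divided by the square root of F. CPM uses TMM-scaled totals, and animal-by-animal signs use a prior count of 2. The code was checked on simulated counts. Library totals limit the precision at low peaks.

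Animal numbers are those in the sample titles, and libraries with 1 number are taken here as paired by mouse. After group means were removed, 18 same-animal pairs correlated at -0.055 to 0.075, and 7 of 12 libraries correlated best with their own animal. Within groups, chi-square per degree of freedom was at least 2.03, so no 2 libraries agreed within sampling noise.

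Named were the 10 higher and 10 lower peaks of smallest adjusted p with 1 sign in all animals, the 6 opposite-call peaks of smallest p, up to 4 genes per list past the threshold or else 1, the 6 genes with most members, the 3 longest runs and 16 fixed genes. Members and lists were chosen with earlier results of these data known, and the histone and small RNA families after their values were seen. Alternatives were DESeq2 1.42.0, RLE factors, TMM factors from gene-end peaks, other filters, the animal as a block, thinning to the lowest total, limma 3.58.1 voom with quantile normalization, and each library left out.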

Additional observations from a re-analysis of the deposited data

Results flagged for a closer look

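The interaction compares the DFMO effect of the same contrast in 2 lineages, and the difference itself was tested, so each named peak that passed is listed here with its log2 value, Th17n minus iTreg. In all 574 peaks passed. Groups of 3 libraries are too small for a test of single outlying libraries.

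Named higher peaks opened by DFMO in Th17n with no passing change in iTreg were Cradd (3.74, 2.76, 2.74 and 2.53), Itpr1 (3.02), a gene-distant peak on chromosome 15 (2.95), Prdm1 (2.74), Vegfa (2.49), Btla (2.48), a gene-distant peak on chromosome 18 (2.37), Tox (1.88) and a gene-distant peak on chromosome 12 (1.63). Also of this kind were Stat3 (1.61), H2ac12 (0.86), H4c9 (0.81) and H2ac11 (0.74). Named higher peaks closed by DFMO in iTreg with no passing change in Th17n were Etv6 (2.26 and 1.60), gene-distant peaks on chromosome 12 (2.12 and 1.55), Itpr1 (2.08), Spcs2 (1.93), Stat4 (1.76), Fads2 (1.67), Slc16a3 (1.46), a gene-distant peak on chromosome 8 (1.42) and Il6ra (1.37). Also of this kind were Nrp1 (1.34), Scd2 (1.16), Pfkp (0.99), Slc7a5 (0.98) and Smad3 (0.82). Named higher peaks opened in Th17n and closed in iTreg were Rab38 (4.17), Shld2 (4.06), Ccser1 (2.75), Psma6 (2.28), Aim2 (1.97) and Ikzf3 (1.88). The named higher peak passing in neither lineage taken singly was Kdm2b (1.03). Named lower peaks closed in Th17n and opened in iTreg were Hspb8 (-3.30), Atm (-3.15), Uvrag (-2.03) and Zeb1 (-1.97). Named lower peaks opened in iTreg with no passing change in Th17n were Cep70 (-2.93), Ppp1r16b (-2.59 and -1.84), Bach2 (-2.48), Srgap3 (-2.36), Ep300 (-2.36), Bend4 (-2.19), Peli2 (-1.76) and a peak on the unplaced scaffold (-1.11). Named lower peaks closed in Th17n with no passing change in iTreg were Tgfbi (-4.50), Ndrg1 (-3.47), Itpr1 (-3.24), Id2 (-2.91), Il17a (-2.78), Satb1 (-2.40), Bend4 (-2.29), Ripor2 (-2.10) and Etv6 (-2.05). Also of this kind was Il4ra (-1.49). Named lower peaks passing in neither lineage taken singly were Sqle (-4.36), Srgap3 (-1.74), Ppp1r16b (-0.92) and Jak1 (-0.91).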

How the results depend on the processing

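The count of 574 interaction peaks (365 higher, 209 lower, 40 with opposite calls) was within 1.5 times under DESeq2, RLE and gene-end factors, other filters, a minimum of 1 log2 unit and the replicate block (473 to 686). Thinned to the lowest total it was 182 (105 higher, 77 lower, 8 opposite), and with voom and quantile normalization 1068 (654 higher, 414 lower, 53 opposite). Without 1 library it was 192 to 1370, with 108 to 947 higher, 84 to 423 lower and 12 to 87 opposite. By unadjusted p within a lineage 205 were opposite. With a window of 2.5 kb, gene ends held 18.1% of higher and 11.5% of lower peaks, and 69.2% had a gene within 10 kb, against 90.2% within 100 kb. With the animal as a replicate block, a paired fit, 686 passed (448 higher, 238 lower). Of 66 named calls the block ended Cradd (adjusted p = 0.0522) and Ppp1r16b (0.0548) and changed no other, and Nfkb2, not past the threshold without it, passed (0.0368). None of the 66 changed sign in any fit, while some values near 0 that did not pass did. Of the 66 calls, 25 held in all 12 fits without 1 library and 41 ended in 1 or more. In the other settings, 32 ended in none that gave them an adjusted p. Among these, Tgfbi and Sqle had no adjusted p in DESeq2 or with thinned libraries, and Ep300 had none with thinned libraries. DESeq2 ended 8, RLE factors 7, gene-end factors 8, no filter 7, thinning 30 and voom 2. The median over all peaks moved by less than 0.1 log2 under every scaling. Where a call ended, the cause was not tested, except that leaving out a library or thinning leaves fewer counts. Depth limits peaks of a few CPM, where 1 library of 1020937 counts holds few reads.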
